A study of Mus musculus with 2 samples.

Results

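The IL-17 and IL-23 axis was followed through 8 genes, chosen by symbol from the 31053 genes counted in mouse periodontal tissue. They were the ligand genes *Il17a*, *Il17f* and *Il23a*, the receptor genes *Il17ra*, *Il17rc* and *Il23r*, and the response genes *Nfkbiz* and *Zc3h12a*. Together they held 7447 of the 10560109 unique molecular identifiers (UMIs, which count captured transcript molecules) of the kept cells after ligature and 2427 of 13407122 in the control. Cells came from the gingiva and from the scraped surface of the alveolar bone of WT C57BL/6 mice, 8 weeks old. In the ligature-induced periodontitis (LIP) group a ligature had been in place for 7 days, and the control group was untreated. Live cells of 5 mice per group were pooled into 1 single-cell library per group, so the spread between mice cannot be measured, no test between conditions was possible, and ligature, library and mice cannot be told apart. A level in CPM is the gene's UMIs per 1000000 UMIs of the cells named, and every interval is an exact 95% interval that covers counting error only.

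IL-17A and IL-17F are secreted mainly by type 17 lymphocytes, which include helper T cells and T cells carrying the gamma-delta receptor. They act through a receptor built from the IL-17RA and IL-17RC chains, which drives chemokine, antimicrobial peptide and matrix protease genes in epithelial and stromal cells and so draws in neutrophils. IL-23, a pairing of the *Il23a* product with the *Il12b* product, is made by myeloid cells and sustains type 17 cells through a receptor that contains IL-23R. *Nfkbiz* encodes I-kappaB-zeta, a nuclear cofactor of NF-kappaB needed for many IL-17 responses, and *Zc3h12a* encodes Regnase-1, an RNase that degrades inflammatory transcripts, *Nfkbiz* among them. The axis guards the gingival barrier, and its excess is known to drive bone loss around teeth.

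On GRCm38 (mm10, GENCODE M21) *Il17a* lies at chr1:20730905-20734496 on the plus strand, and *Il17f* lies 42.6 kb beyond it at chr1:20777146-20790617 on the minus strand. *Il17ra* (chr6:120463247-120487559, plus), *Il17rc* (chr6:113471427-113483140, plus) and *Il23r* (chr6:67422932-67491855, minus) share chromosome 6. *Il23a* is at chr10:128296139-128298752, *Nfkbiz* at chr16:55811375-55838899 and *Zc3h12a* at chr4:125118423-125127840, all on the minus strand. No annotated gene overlapped any of the 8.

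The promoters of the 3 genes that were seen together in T-like cells are shown with the half-site AGGTCA, which many nuclear receptors bind. They are the 250 bases before each RefSeq start on GRCm38.p6, 5′ to 3′ on the gene's strand, with the half-site in capitals (TGACCT where it lies on the opposite strand). The *Il17a* window is chr1:20730655-20730904 (plus), the *Il17f* window chr1:20784271-20784520 (minus) and the *Il23r* window chr6:67491856-67492105 (minus).
Il17a: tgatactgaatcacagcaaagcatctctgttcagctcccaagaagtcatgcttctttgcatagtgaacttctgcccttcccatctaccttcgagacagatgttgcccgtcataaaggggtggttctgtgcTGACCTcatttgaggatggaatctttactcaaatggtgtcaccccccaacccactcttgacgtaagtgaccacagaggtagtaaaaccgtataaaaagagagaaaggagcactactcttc
Il17f: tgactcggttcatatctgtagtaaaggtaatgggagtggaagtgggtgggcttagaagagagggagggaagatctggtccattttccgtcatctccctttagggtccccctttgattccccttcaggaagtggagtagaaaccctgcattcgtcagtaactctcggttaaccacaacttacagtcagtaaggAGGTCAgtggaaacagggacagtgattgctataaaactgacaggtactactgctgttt
Il23r: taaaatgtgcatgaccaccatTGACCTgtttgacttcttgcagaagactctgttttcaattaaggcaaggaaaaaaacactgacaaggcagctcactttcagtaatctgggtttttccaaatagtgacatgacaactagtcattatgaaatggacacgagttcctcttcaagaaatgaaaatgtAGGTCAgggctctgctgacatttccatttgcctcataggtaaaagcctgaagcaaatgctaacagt
The half-site stood 120 to 115 bases before the start of *Il17a*, 58 to 53 bases before that of *Il17f*, and at 229 to 224 and 66 to 61 bases before that of *Il23r*. On either strand it was present in 14.0% of all 32851 promoter windows of this length. The *Il17rc* and *Zc3h12a* windows did not hold it, and the table matched 5 of the 8 genes, *Il17ra*, *Il23a* and *Nfkbiz* being the others. The *Il17f* window lies within the annotated span of the gene, 26 of its bases falling in an exon of a transcript that starts further upstream, and the *Il17a* and *Il23r* windows overlap no annotated gene.

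After filtering, 936 LIP and 883 control barcodes were kept, with medians of 5595 and 10845 UMIs, and 94.4% and 96.6% of them fell into 14 classes named from marker genes. A class is called X-like after those markers, and 9 classes with at least 20 cells in each library were compared. LIP and control held 324 and 53 neutrophil-like, 75 and 36 macrophage-like, 27 and 51 T-like, 123 and 260 epithelial-like, 24 and 92 fibroblast-like, 33 and 21 osteogenic-like, 45 and 46 mural-like, 79 and 48 vascular endothelial-like and 103 and 37 Schwann-like cells. The B-like cells (19 and 152) were not compared, because fewer than 20 were in LIP. Their sub-clusters also split almost wholly by library. The macrophage-like class includes cells with dendritic cell features. Its sub-cluster led by *H2-Eb1*, *H2-Ab1* and *Cd209a*, which is 38 of 75 LIP and 32 of 36 control cells, had 1 macrophage marker (*Ccr2*) and 1 dendritic cell marker (*Cd209a*) among its 10 leading genes, beside several antigen presentation genes. With each cell named by its own highest marker score, 14 LIP and 17 control cells were dendritic and 57 and 22 macrophage. In the same naming 21 LIP and 50 control cells were T, and 7 and 9 were natural killer (NK) or innate lymphoid. *Nkg7*, a marker of the latter, was among the leading genes of the T-like class. Neutrophil transcripts were also counted in other classes: *S100a8*, one of the most abundant, was at 503 CPM in T-like cells of the LIP library and 47.6 CPM in those of the control.

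**Figure D1:**
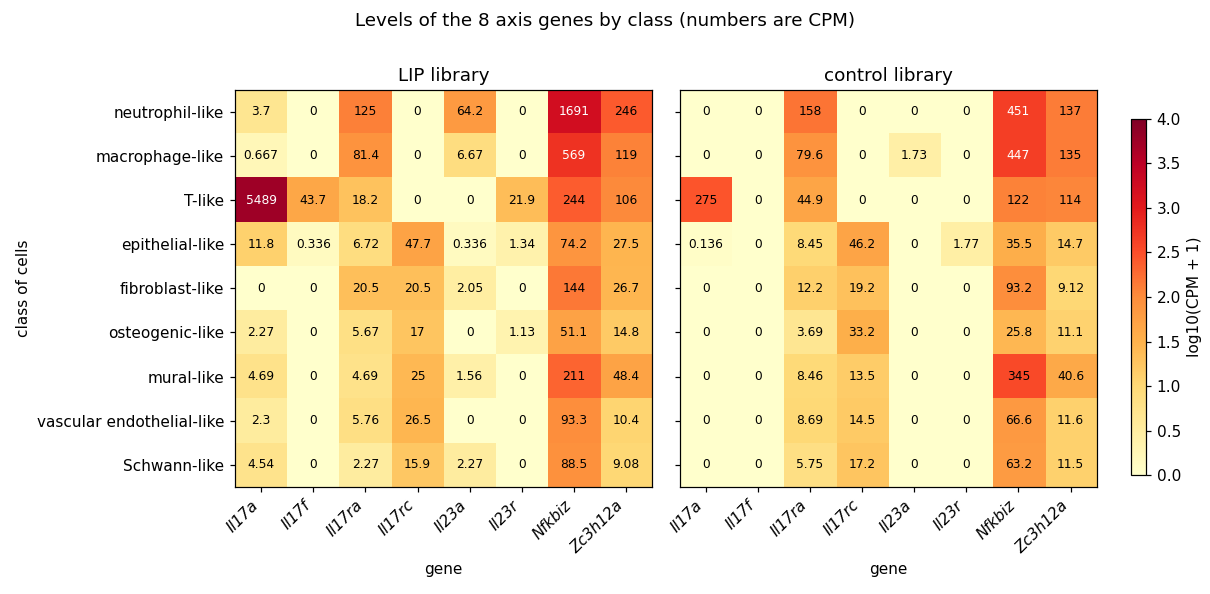
Levels of the 8 genes (columns, in CPM, shaded on a log10 scale) in the 9 compared classes (rows) of the LIP library (left) and the control library (right), 1 library each. *Il17a*, *Il17f* and *Il23r* stand highest in T-like cells of the LIP library, *Il23a* in neutrophil-like cells, and the receptor chains *Il17ra* and *Il17rc* are highest in different rows.

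With a change called at 2-fold or more after 10 CPM was added to each side, and at least 20 UMIs over both libraries, 4 calls higher in LIP and 0 lower were made for the 8 genes over the 9 classes. They were *Il17a* in T-like cells, where 7.44% of all tested genes were called higher, *Il17a* in epithelial-like cells (1.74%), and *Il23a* and *Nfkbiz* in neutrophil-like cells (7%). *Nfkbiz* had enough UMIs for the call in all 9 classes, *Zc3h12a* in 6, *Il17ra* and *Il17rc* in 5 each, *Il17a* in 2, *Il23a* in 1, and *Il17f* and *Il23r* in none.

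*Il17a* belonged almost wholly to the T-like cells. Of its 1560 UMIs in the LIP library 1507 were there, a share of 96.6%, and of its 105 UMIs in the control 104 were. The level in T-like cells was 5489 CPM (5216 to 5774) in LIP and 275 CPM (225 to 333) in the control, a log2 ratio of 4.32 (4.03 to 4.62). In LIP 12 of 27 T-like cells held the transcript and in the control 3 of 51, and with every cell thinned to 1000 UMIs the expected shares were 42.5% and 4.44%, all cells being deep enough to enter. In neutrophil-like cells of the LIP library, which should lack the transcript, 6 of 324 held a UMI.

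The UMIs were spread very unevenly over those cells. The 12 LIP cells held from 7 to 531 UMIs with a median of 63.5, and 35.2% of the *Il17a* UMIs of the class came from a single cell. The 3 control cells held 11, 11 and 82. Without the highest cell of each library the log2 ratio was 5.99 (5.38 to 6.67); the highest LIP cell held 531 UMIs and the highest control cell 82.

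Of the 12 *Il17a*-holding LIP cells 10 also carried *Trdc*, which encodes the constant region of the T cell receptor delta chain. Among LIP T-like cells *Trdc* counts were either 0 or 1, or between 22 and 166, and 10 of 27 cells were in the upper range. All 10 held *Il17a*, with 531, 241, 222, 174, 104, 70, 49, 25, 12 and 7 UMIs, and together 1435 of the 1507 UMIs of the class. In the control 7 of 51 T-like cells had at least 5 *Trdc* UMIs (11 to 138), and 3 of them held *Il17a*. The level in these cells was 11824 CPM in LIP and 1210 CPM in the control, a log2 ratio of 3.29 (3.00 to 3.59), and the values of the LIP cells overlapped those of the control cells. The limit of 5 was set after the counts had been seen. Thinned to 1000 UMIs, the expected shares of these cells with an *Il17a* UMI were 96.2% and 32.4%, at median depths of 10793 and 12090 UMIs.

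Outside the *Trdc*-rich cells, 2 of 17 LIP cells held *Il17a*, with 57 and 15 UMIs, and 0 of 44 control cells did. The latter allows up to 8.04% of cells with a UMI and does not limit the share that express the gene below detection. Those 2 cells held 7 and 10 UMIs of *Trac*, the alpha chain constant region, and none of *Trdc*. *Cd4*, the co-receptor of helper T cells, had a UMI in 4 of the 27 LIP cells and in 0 of the 12 that held *Il17a*. In the 10 *Trdc*-rich LIP cells, all 10 held *Trdv4*, a delta variable segment, and *Tcrg-C1*, a gamma chain constant region, and 9 held *Cd163l1*, a scavenger receptor of gamma-delta cells that make IL-17. *Trac* was present in 2 of the 10, but *Trbc2*, a beta chain constant region, in 9. *Tcrg-C1* was also held by the 2 *Il17a*-holding LIP cells without *Trdc*, at 7 and 8 UMIs.

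**Figure D2:**
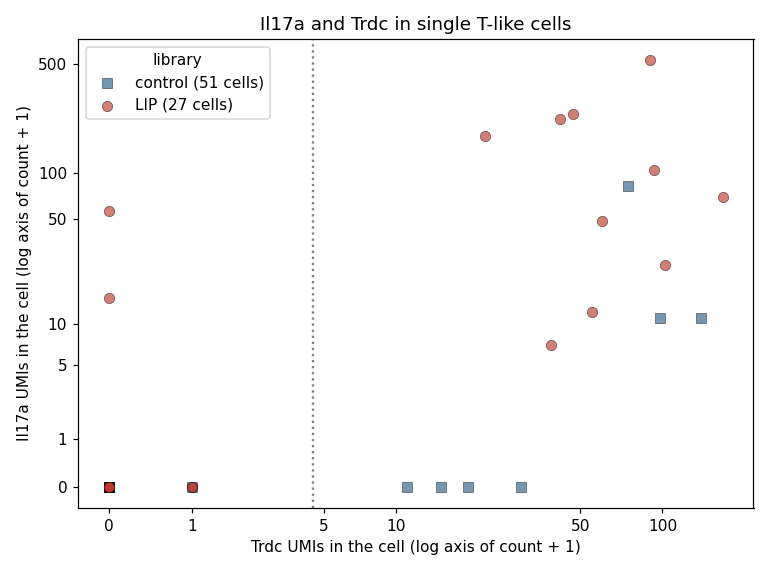
Each point is 1 T-like cell, with its *Trdc* UMIs on the x axis and its *Il17a* UMIs on the y axis (log axes of count + 1), circles for the 27 LIP cells and squares for the 51 control cells; the dotted line marks 5 *Trdc* UMIs. All 10 LIP cells and 3 of 7 control cells right of the line held *Il17a*, and 2 LIP cells held it with no *Trdc*.

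The call for *Il17a* in epithelial-like cells rested on 1 barcode. Of the 35 UMIs in this class in LIP, against 1 in the control, 32 were in a single barcode of 36048 UMIs that also held 47 *Trdc*, 1 *Il17f*, 173 *Krt5* and 310 *Krt14* UMIs, *Krt5* and *Krt14* being keratin genes of basal epithelium. The remaining 21 *Il17a* UMIs outside T-like cells in LIP each stood alone in a cell, among 909 such cells. The doublet caller Scrublet, which marked 1 barcode of the LIP library, did not mark it. Without it the T-like share of *Il17a* UMIs was 98.6%.

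*Il17f* was scarce. It had 12 UMIs in T-like cells of the LIP library, 11 in a cell that held 174 *Il17a* UMIs and 1 in a cell that held 49, and both cells were *Trdc*-rich. It had 0 in the 51 control T-like cells, so the LIP level of 43.7 CPM was at least 5.51-fold higher, taken against 3 counts in the control class and without the counting error of the LIP level.

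*Il23r*, the receptor chain that gives a cell its response to IL-23, was seen in the same cells. It had 6 UMIs in 5 of 27 LIP T-like cells (21.9 CPM) and 0 in 51 control cells. The intervals of the levels, 8.02 to 47.6 CPM in LIP and 0 to 9.75 CPM in the control, overlapped. Of the 5 cells, 4 were *Trdc*-rich and held *Il17a*. *Il12rb1*, its partner chain, was at 18.2 CPM in T-like cells of the LIP library and 18.5 CPM in those of the control. *Il23r* was also found in epithelial-like cells at a low level, 1.34 CPM (0.366 to 3.44) in LIP and 1.77 CPM (0.944 to 3.03) in the control, where 12 of 260 cells held a UMI at a median depth of 28641 UMIs. No UMI was found in the 324 neutrophil-like and 75 macrophage-like cells of the LIP library, and at so few UMIs per cell this does not limit how many of them express the gene.

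Other type 17 lymphocyte genes were counted in the T-like cells. Of 19 listed, 13 had enough UMIs, and 7 were called higher in LIP and 0 lower (7.44% and 5.69% of all genes). The median log2 difference was 1.07 beside 0.09 over all tested genes. *Rora*, a nuclear receptor gene that is also on the marker list of NK or innate lymphoid cells, had its highest LIP level in T-like cells (459 CPM). The alpha-beta T cell list gave 0 higher and 4 lower of 6 tested (5.69% of all genes were called lower), and the gamma-delta list gave 2 higher and 0 lower of 7. The share of *Trdc*-rich cells moved with these lists. It was 37.0% of T-like cells in LIP and 13.7% in the control, and its part in the levels of the class was not tested.

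*Il23a* came mainly from neutrophil-like cells, and its partner *Il12b* from only 2 cells of the macrophage-like class. Of the 119 *Il23a* UMIs in the LIP library, 104 were in 36 of 324 neutrophil-like cells, at 64.2 CPM (52.4 to 77.7), and 10 were in 5 of 75 macrophage-like cells, at 6.67 CPM (3.20 to 12.3). The neutrophil-like level stood above the macrophage-like level by 3.27 on the log2 scale (2.33 to 4.37). The control library held a single *Il23a* UMI, in a macrophage-like cell, and 0 in 53 neutrophil-like cells, which allows up to 6.72% of cells with a UMI. The LIP level in neutrophil-like cells was therefore at least 10.0-fold higher, taken against 3 counts in the control class and without the counting error of the LIP level. The 27 T-like cells of the LIP library held no *Il23a* UMI.

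Of the *Il23a*-holding neutrophil-like cells, 18 of 36 had 1 UMI, the highest had 19 and the next 9, and the 5 highest held 45.2% of the UMIs. All 36 fell in the same sub-cluster, whose leading genes were the inflammatory genes *Acod1* and *Ccl3* and which had 273 LIP and 27 control cells. The other sub-cluster, led by the granule genes *Ltf*, *Ngp* and *Camp*, had 51 LIP and 26 control cells and no *Il23a* UMI. Within the LIP library the *Acod1*-led sub-cluster stood at 107 CPM, at least 23.3-fold above the granule-gene sub-cluster, and it was at least 3.84-fold above its own control cells. Both bounds were taken against 3 counts, without the counting error of the 107 CPM. Between LIP and control within this sub-cluster *Il23a* was the only 1 of the 8 genes called, in a comparison where 8.65% of all genes were called higher and 10.2% lower.

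*Il12b* had 84 UMIs in LIP, all in 2 of 75 macrophage-like cells, 81 of them in a single cell, and 0 in the control and in all neutrophil-like cells. Only 1 macrophage-like cell held *Il23a* and *Il12b* together. *Il12b* was called higher in LIP in the sub-cluster led by *H2-Eb1* and *Cd209a*, which has dendritic cell features (2.38% of all genes). Of the macrophage-like *Il23a* UMIs in LIP, 1 was in that sub-cluster and 9 in the one led by *Arg1* and *Saa3*. *Ebi3*, which pairs with *Il27* and *Il12a*, was at 102 CPM in neutrophil-like cells of the LIP library and 96.2 CPM in those of the control, a log2 ratio of 0.08 (−0.40 to 0.59). *Il1b*, an inducer of type 17 cells, was at 8355 and 2840 CPM in the same cells, a log2 ratio of 1.56 (1.48 to 1.64). Within the *Acod1*-led and granule-gene sub-clusters 0 of 3 and 0 of 2 tested inducers were called higher in LIP (8.65% and 3.11% of all genes). The part of the make-up of the class in the *Il1b* ratio was not tested. Among the other IL-17 family ligands, *Il17d* had 32 UMIs in LIP, its highest class being mural-like cells (21.9 CPM), and 74 in the control, its highest class being fibroblast-like cells (53.7 CPM). *Il17c* had 1 UMI in LIP and 0 in the control, and *Il25* had 0 in each.

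The receptor chains were highest in different classes. Among the 9 compared classes *Il17ra*, the chain shared by most IL-17 receptors, was highest in neutrophil-like cells. It was at 125 CPM (109 to 144) there in LIP and 158 CPM (124 to 199) in the control. Macrophage-like cells came next, at 81.4 CPM and 79.6 CPM. B-like cells, which were not compared, were at 86.6 CPM (37.4 to 171) in LIP, from 8 UMIs, and at 39.2 CPM (27.4 to 54.2) in the control. The step from neutrophil-like to macrophage-like cells exceeded counting error in each library, with log2 ratios of 0.62 (0.29 to 0.96) and 0.99 (0.44 to 1.55). T-like cells were at 18.2 and 44.9 CPM, fibroblast-like cells at 20.5 and 12.2, epithelial-like cells at 6.72 and 8.45, and mural-like, vascular endothelial-like, osteogenic-like and Schwann-like cells at 2.27 to 8.69 CPM. In LIP macrophage-like cells stood above fibroblast-like cells, the next in order, by 1.99 (1.06 to 3.09), and from there down no neighbouring classes differed beyond counting error. Leukocyte classes together stood above the other named classes by 3.73 on the log2 scale (3.30 to 4.18) in LIP, where 9.68% of all tested genes were called higher in leukocytes, and by 3.09 (2.72 to 3.46) in the control (9.55%). *Il17a*, *Nfkbiz* and *Zc3h12a* were also called higher in leukocytes in each library, and *Il23a* in LIP.

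*Il17rc*, the partner chain that makes a functional receptor for IL-17A and IL-17F, was the reverse. It had 0 UMIs in the neutrophil-like, macrophage-like and T-like cells of either library, which allows up to 2.28 CPM in the 324 LIP neutrophil-like cells. Epithelial-like cells were highest, at 47.7 CPM (40.2 to 56.2) in LIP and 46.2 CPM (41.4 to 51.4) in the control. Next in LIP came vascular endothelial-like cells at 26.5 CPM, mural-like at 25.01, fibroblast-like at 20.5, osteogenic-like at 17.02 and Schwann-like at 15.9, and no neighbours among these 5 differed beyond counting error. In the control the order was osteogenic-like at 33.2 CPM, fibroblast-like at 19.2, Schwann-like at 17.2, vascular endothelial-like at 14.5 and mural-like at 13.5, with no neighbours, epithelial-like and osteogenic-like cells included, that differed beyond counting error. All named non-leukocyte classes together were at 31.9 CPM in LIP, at least 37.0-fold above the leukocyte classes, where 19.5% of all tested genes were called lower. That bound was taken against 3 counts, without the counting error of the 31.9 CPM. In the control 2 of 292 leukocytes held a UMI, both B-like, a level lower by 5.44 on the log2 scale (15.5% called lower).

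**Figure D3:**
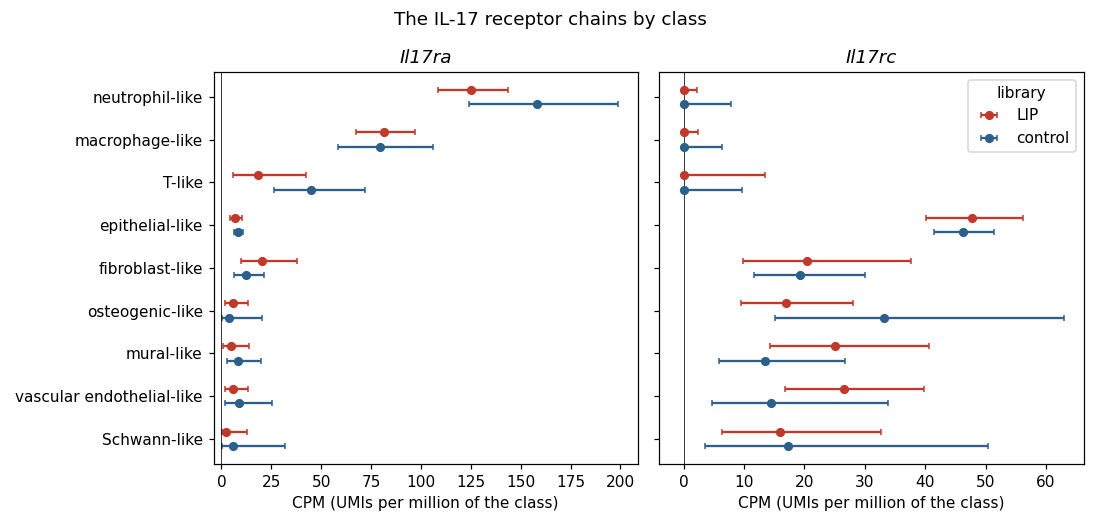
*Il17ra* (left) and *Il17rc* (right) in CPM on a linear axis for the 9 compared classes, LIP and control side by side, with exact 95% Poisson intervals for counting error. *Il17ra* is highest in neutrophil-like and macrophage-like cells and *Il17rc* is at 0 there, while *Il17rc* is highest in epithelial-like cells.

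Single cells with UMIs of both chains were most numerous in the epithelial-like class, which was also among the largest and deepest. Of its LIP cells 12 of 123 held UMIs of both chains (9.76%, 5.14 to 16.4), and of its control cells 35 of 260 (13.5%, 9.56 to 18.2). In LIP 55 held only *Il17rc* and 5 only *Il17ra*. Among fibroblast-like cells 4 of 24 (16.7%, 4.74 to 37.4) and 3 of 92 held both chains, and among osteogenic-like cells 0 of 33 and 1 of 21, with 11 and 7 holding only *Il17rc*. No neutrophil-like, macrophage-like or T-like cell held UMIs of both chains, and 114 of 324 LIP neutrophil-like cells and 54 of 75 LIP macrophage-like cells held *Il17ra* alone. Epithelial-like cells were sequenced more deeply, at a median of 24114 UMIs in LIP against 3858 for neutrophil-like cells, so that these shares are not comparable between classes.

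Each chain had enough UMIs in 5 classes and was called different between LIP and control in none. For *Il17ra* these were T-like, epithelial-like, fibroblast-like, macrophage-like and neutrophil-like cells. For *Il17rc* they were epithelial-like, fibroblast-like, mural-like, osteogenic-like and vascular endothelial-like cells. In these classes 1.74% to 7.44% of all genes were called higher and 0.352% to 6.84% lower. The ratios of the best-counted classes were small. *Il17rc* in epithelial-like cells gave a log2 ratio of 0.05 (−0.25 to 0.33), *Il17ra* in macrophage-like cells 0.03 (−0.47 to 0.55) and *Il17ra* in neutrophil-like cells −0.34 (−0.73 to 0.07). Other classes had wide intervals, such as *Il17ra* in T-like cells at −1.30 (−3.10 to 0.20) and *Il17rc* in osteogenic-like cells at −0.96 (−2.25 to 0.41). Within the *Acod1*-led neutrophil-like sub-cluster *Il17ra* was at 145 CPM in LIP and 279 CPM in the control, a log2 ratio of −0.94 (−1.52 to −0.32). In the granule-gene sub-cluster it was at 95.2 and 122 CPM, a ratio of −0.36 (−0.94 to 0.23). Among epithelial-like cells of the control, the sub-cluster led by *Krt13* and *Krt4*, keratins of upper layers, held more *Il17rc* (67.6 CPM) than that led by *Col17a1* and *Trp63*, genes of the basal layer (37.7 CPM). In LIP these were at 60.2 and 40.4 CPM, within counting error of each other. Their log2 ratios of LIP over control were −0.17 and 0.10, with intervals that included 0. In the cycling sub-cluster led by *Top2a*, *Il17rc* was at 44.4 CPM in LIP and 24.0 CPM in the control, a log2 ratio of 0.89 (0.26 to 1.51).

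Of the other receptors, *Il17re*, which with IL-17RA forms the receptor for IL-17C, was epithelial: 96.7% of its 92 LIP UMIs and 95.8% of its 309 control UMIs were in epithelial-like cells, at 29.9 and 40.4 CPM, a log2 ratio of −0.43 (−0.79 to −0.09). *Il17rd*, a receptor that tempers IL-17 signals, was highest in vascular endothelial-like cells, at 38.0 and 34.8 CPM. *Il17rb*, the receptor for IL-25, had only 13 and 18 UMIs. *Traf3ip2*, which encodes the adaptor Act1 that binds IL-17 receptors, was thinly spread, its highest class being fibroblast-like at 16.4 CPM in LIP and 22.3 CPM in the control. Of the 21 signalling genes listed, 21 were tested in epithelial-like cells, of which 1 was called higher and 0 lower (1.74% and 0.352% of all genes). Their median log2 was 0.12 beside 0.01 over all genes.

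*Nfkbiz* was the most widely seen of the 8 genes. In LIP its order ran from neutrophil-like cells at 1691 CPM (1628 to 1755) through macrophage-like at 569, T-like at 244, mural-like at 211, fibroblast-like at 144, vascular endothelial-like at 93.3, Schwann-like at 88.5 and epithelial-like at 74.2 to osteogenic-like at 51.1 CPM. T-like and mural-like cells did not differ beyond counting error, nor did the vascular endothelial-like, Schwann-like and epithelial-like neighbours. In the control, neutrophil-like cells at 451 CPM and macrophage-like cells at 447 CPM were level, and mural-like cells followed at 345 CPM.

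Between libraries, *Nfkbiz* in neutrophil-like cells was higher in LIP by 1.91 on the log2 scale (1.70 to 2.11). The median cell held 7 UMIs in LIP and 3 in the control, at median depths of 3858 and 6494 UMIs, and per 10000 UMIs of the cell the medians were 18.3 and 4.57. The make-up of the class moved with this ratio: the *Acod1*-led sub-cluster, where *Nfkbiz* was higher than in the granule-gene sub-cluster by 2.75 in LIP and 2.82 in the control, made up 273 of 324 LIP cells but 27 of 53 control cells. Between the sub-clusters, *Nfkbiz*, *Zc3h12a* and *Il23a* were called higher in the *Acod1*-led cells of LIP (19.7% of all genes), and *Nfkbiz*, *Zc3h12a* and *Il17ra* in those of the control (28.3%). Within the *Acod1*-led sub-cluster *Nfkbiz* was at 2570 CPM in LIP and 1331 CPM in the control, a log2 ratio of 0.95 (0.71 to 1.20). Within the granule-gene sub-cluster it was at 381 and 189 CPM, a ratio of 1.01 (0.62 to 1.42), and none of the 8 genes was called between LIP and control there (3.11% of all genes were called higher). Cells of the *Acod1*-led sub-cluster that held *Il23a* had more *Nfkbiz* than those that did not, 3202 against 2466 CPM, a log2 ratio of 0.38 (0.23 to 0.53), while *Zc3h12a* gave −0.04 (−0.52 to 0.41).

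*Zc3h12a* in neutrophil-like cells was at 246 CPM (222 to 271) in LIP and 137 CPM (105 to 175) in the control, a log2 ratio of 0.84 (0.46 to 1.25) that fell short of the call. Inside the *Acod1*-led sub-cluster the direction turned, with 351 CPM in LIP and 438 CPM in the control, a log2 ratio of −0.32 (−0.76 to 0.15), and inside the granule-gene sub-cluster it was 89.1 against 47.2 CPM, a ratio of 0.92 (0.12 to 1.79). The sub-clusters themselves differed by 1.98 on the log2 scale in LIP and 3.21 in the control. The part of the make-up of the class in its ratios was not tested further.

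**Figure D4:**
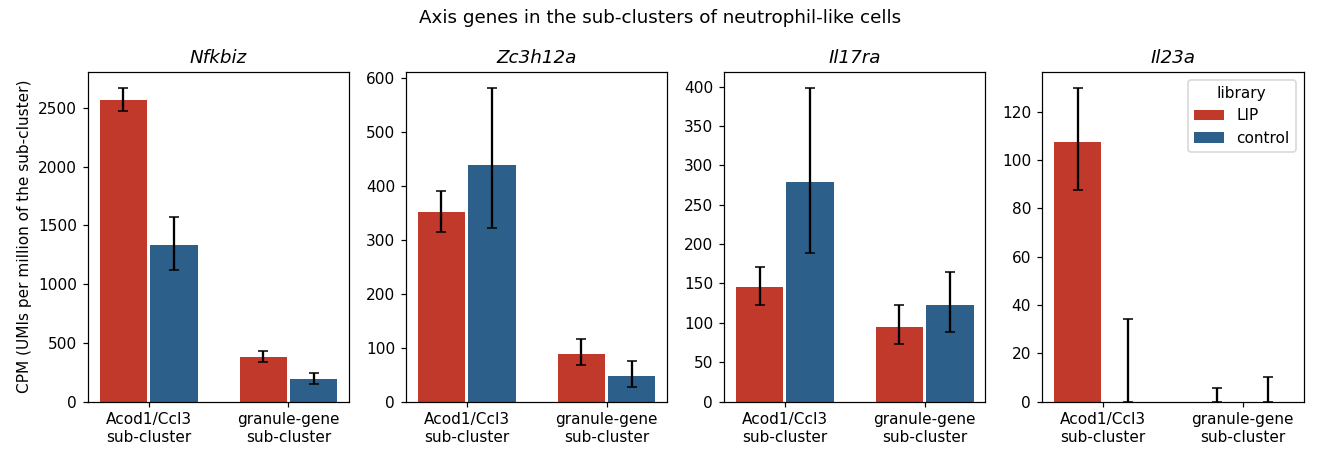
CPM of *Nfkbiz*, *Zc3h12a*, *Il17ra* and *Il23a* in the *Acod1*/*Ccl3* and granule-gene sub-clusters of neutrophil-like cells, LIP and control bars side by side from 0, with exact 95% Poisson intervals; the cells number 273 and 27, and 51 and 26. *Nfkbiz* is higher in LIP in each sub-cluster, *Zc3h12a* in the granule-gene one, and *Il23a* is at 0 outside the *Acod1*/*Ccl3* cells of LIP.

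In epithelial-like cells, the class with the most *Il17rc*, *Nfkbiz* was at 74.2 CPM (64.8 to 84.7) in LIP and 35.5 CPM (31.3 to 40.0) in the control, a log2 ratio of 1.07 (0.80 to 1.33). It was below the call once 10 CPM was added. *Zc3h12a* was at 27.5 CPM in LIP and 14.7 CPM in the control, a log2 ratio of 0.90 (0.47 to 1.33). Each of the 3 well-counted sub-clusters showed the direction for both genes. *Nfkbiz* ratios were 1.75 (1.31 to 2.18) in the *Krt13* and *Krt4* sub-cluster, 0.77 in the *Col17a1* and *Trp63* sub-cluster and 0.61 in the cycling one led by *Top2a*, and those of *Zc3h12a* were 1.02, 0.96 and 0.84, the latter pair with intervals that included 0. The class held 29.4% of control cells and 13.1% of LIP cells.

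The other classes did not move together. *Nfkbiz* was higher in LIP beyond counting error in T-like (log2 1.01, 0.44 to 1.58), fibroblast-like (0.62, 0.15 to 1.09) and macrophage-like cells (0.35, 0.15 to 0.56). It was lower in mural-like cells, at 211 CPM in LIP and 345 CPM in the control (−0.71, −1.03 to −0.39). Intervals for osteogenic-like (0.98), vascular endothelial-like (0.48) and Schwann-like cells (0.49) included 0. The vascular endothelial-like ratio was 2.41 (1.11 to 4.07) when barcodes with over 5% mitochondrial UMIs were left out, from 68 and 5 UMIs. Among macrophage-like cells, the sub-cluster led by *H2-Eb1* and *Cd209a* had 38 LIP and 32 control cells, and there *Nfkbiz* was at 722 and 475 CPM, a log2 ratio of 0.60 (0.38 to 0.83). The sub-cluster led by *Arg1* and *Saa3* was 37 LIP cells and 4 control cells, and *Nfkbiz* was lower in it, at 416 CPM in LIP. The fibroblast-like ratio rested on few cells: without the highest cell of each library it was 0.46 (−0.09 to 0.998). *Zc3h12a* in fibroblast-like cells was higher in LIP by 1.55 (0.21 to 2.95) from 13 and 9 UMIs, and by 1.28 (−0.27 to 2.85) without those cells. Its intervals in macrophage-like (−0.18) and T-like cells (−0.11) included 0.

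**Figure D5:**
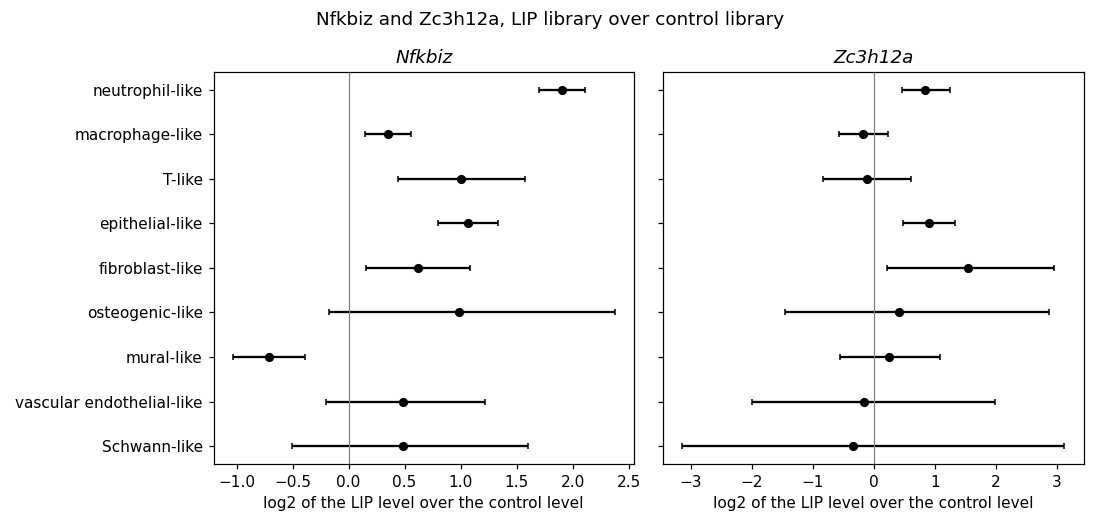
Log2 ratio of the LIP level over the control level of *Nfkbiz* (left) and *Zc3h12a* (right) in the 9 compared classes, with exact 95% conditional intervals for counting error; the vertical line is no difference. For *Nfkbiz* the neutrophil-like point is highest at 1.91 and the mural-like point lies left of 0 at −0.71.

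The relatives of *Nfkbiz* were counted in the same way. In neutrophil-like cells 7 of 10 tested NF-kappaB and I-kappaB genes were called higher in LIP and 0 lower (7% and 1.46% of all genes). Their median log2 was 1.14 beside −0.03 over all genes. *Nfkbia*, the inhibitor I-kappaB-alpha, was at 4161 and 1296 CPM there. Within the sub-clusters the count was smaller, 1 of 10 in the *Acod1*-led (8.65% of all genes) and 0 of 7 in the granule-gene sub-cluster (3.11%). In T-like cells 4 of 10 were higher (7.44% of all genes), in epithelial-like cells 1 of 10 (1.74%), and in macrophage-like cells 0 of 10 (4.85%). Of the mRNA decay genes grouped with *Zc3h12a*, 4 of 10 tested were higher in neutrophil-like cells (7% of all genes). *Tnfaip3*, a brake on NF-kappaB, was at 651 and 188 CPM there. Within the *Acod1*-led and granule-gene sub-clusters 2 of 10 and 0 of 9 were higher (8.65% and 3.11%). In mural-like cells, where *Nfkbiz* was lower, *Zfp36*, which destabilizes cytokine transcripts, was also lower, at 506 CPM in LIP and 1168 CPM in the control, a log2 ratio of −1.21 (−1.40 to −1.01). Of 8 decay genes tested there 2 were called lower (2.31% of all genes) and 0 higher (2.9%).

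Genes known to respond to IL-17 were counted from a list of 25. In epithelial-like cells 11 of 18 tested were called higher and 3 lower (1.74% and 0.352% of all genes), with a median log2 of 1.67 beside 0.01 over all genes, and in osteogenic-like cells 11 of 15 were higher and 0 lower (4.65% and 6.84% of all genes), with a median of 1.85 beside −0.12. *Cxcl5*, a neutrophil chemoattractant, was at 372 CPM in LIP and 0.409 CPM in the control in epithelial-like cells, and at 757 and 192 CPM in osteogenic-like cells. *Cxcl1*, another, was at 56.8 and 0.682 CPM in epithelial-like cells. *Csf3*, which promotes neutrophil production, had 97 UMIs in LIP epithelial-like cells and 0 in the control. In LIP *Cxcl1* and *Csf3* were highest in macrophage-like cells, at 330 and 106 CPM. Both were also called higher in macrophage-like and neutrophil-like cells. *Ccl20*, the ligand of the receptor that many type 17 cells carry, was found only in epithelial-like cells, at 11.4 and 2.73 CPM. *Il6* had 67 UMIs in LIP osteogenic-like cells and 0 in the control, where the classes held 881092 and 270951 UMIs in all. Its highest class was mural-like in each library, at 152 CPM in LIP and 186 CPM in the control. *Tnfsf11*, the gene of RANKL, was at 20.4 and 11.1 CPM in osteogenic-like cells, with an interval that included 0 (−0.89 to 3.29). Among the compared classes *Tnfsf11* was highest in T-like cells, at 102 CPM in LIP and 37.0 CPM in the control.

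The direction was not uniform. In epithelial-like cells the antimicrobial genes *Lcn2* (42.7 CPM in LIP, 311 in the control), *S100a8* (794 and 2457) and *S100a9* (1050 and 2510) were lower in LIP. Of 12 tested in fibroblast-like cells 5 were higher and 2 lower (2.39% and 2.82% of all genes). Of 10 in mural-like cells 4 were higher and 1 lower (2.9% and 2.31%). *Cxcl1* was the lower one in mural-like cells, at 203 CPM in LIP and 547 CPM in the control. Members of the list were also called higher where *Il17rc* was at 0. In macrophage-like cells 10 of 14 were higher and 0 lower (4.85% and 2.64% of all genes), with a median of 1.96 beside 0.04. In neutrophil-like cells 8 of 13 were higher and 0 lower (7% and 1.46%), with a median of 1.63. *Cxcl2* was at 16826 and 2507 CPM in neutrophil-like cells, a log2 ratio of 2.75 (2.66 to 2.83). The make-up of these classes moved with the counts, and values within sub-clusters were added after the data had been seen. Among neutrophil-like cells 7 of 13 were higher and 1 lower in the *Acod1*-led sub-cluster (8.65% and 10.2% of all genes), itself partly led by *Cxcl2*. In the granule-gene sub-cluster 1 of 7 was higher (3.11%). *Cxcl2* gave log2 ratios of 1.48 in the former and 1.04 in the latter. Among macrophage-like cells the sub-cluster led by *Arg1* and *Saa3*, the latter a gene of the list, was 37 LIP and 4 control cells. In the sub-cluster led by *H2-Eb1* and *Cd209a*, 4 of 9 were higher and 0 lower (2.38% and 1.62% of all genes), with a median of 0.69 beside 0.06. Those 4 were *Ccl2*, *Ccl7*, *S100a8* and *S100a9*. *S100a8* and *S100a9* made up 2 of the 3 genes called higher of 4 tested in T-like cells (7.44% of all genes higher and 5.69% lower). The other gene called higher there was *Tnfsf11*, and *Cxcl2* was called lower. *S100a8* and *S100a9* also made up 2 of 4 of 5 tested in Schwann-like cells (4.04% and 4.84%) and 2 of 3 of 7 tested in vascular endothelial-like cells (3.97% and 2.77%). The genes called higher also included *S100a8* and *S100a9* in macrophage-like cells, and *S100a9* in mural-like and osteogenic-like cells. In osteogenic-like cells they also included *Lcn2* and *Cxcl2*, with 94.1% and 73.4% of their LIP UMIs in neutrophil-like cells. *Saa3*, also called higher there, had 64.2% of its LIP UMIs in macrophage-like cells. The 11 genes called higher in epithelial-like cells included *Cxcl2* and *Saa3* as well. They also included *Il1f9*, with 85.1% of its LIP UMIs in neutrophil-like cells, and *Mmp13*, with 87.9% in osteogenic-like cells. *Defb3*, another of the 11, had 98% of its LIP UMIs in epithelial-like cells. Whether the UMIs of these genes came from the cells of the classes where they were called was not tested.

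Likeness of pattern was read over the 19 sums of class and library with at least 20 cells, among 11789 genes, as Pearson's r of log2(CPM + 10), a description over points that share libraries and differ in depth. The 5 genes most like *Il17a* were *Gzma* (0.99), *Tnfrsf9* (0.98), *Ctla4* (0.98), *Trdc* (0.97) and *Cxcr6* (0.97). *Il17ra* was most like *Evi2* (0.96) and *Plcl2* (0.95), *Il17rc* most like *Csad* (0.93) and *Phlda3* (0.93), *Il23a* most like *BC100530* (0.95) and *Gm5416* (0.95), *Nfkbiz* most like *Ccrl2* (0.95) and *Efhd2* (0.93), *Zc3h12a* most like *Kdm6b* (0.95) and *Gpsm3* (0.93), and *Il23r* most like *Ubl5* (0.87) and *Il17a* (0.86). Among the 8 genes themselves the highest values were those of *Il17f* with *Il23r* (0.98), *Il17ra* with *Zc3h12a* (0.88), *Il17a* with *Il17f* (0.88), *Il17a* with *Il23r* (0.86) and *Nfkbiz* with *Zc3h12a* (0.78), and the lowest those of *Il17rc* with *Zc3h12a* (−0.84) and with *Il17ra* (−0.82). *Il17f* and *Il23r* had few UMIs, and *Il17f* was not among the genes searched, which needed at least 100. Both stood out in 1 sum only, T-like cells of LIP (43.7 and 21.9 CPM), with at most 0.336 and 1.77 CPM in any other. Their r with each other rests mainly on that sum. *Il17a* stood out only in T-like cells, at 5489 CPM in LIP and 275 CPM in the control, with at most 11.8 CPM in any other sum. *Il23a* stood out only in neutrophil-like cells of LIP, at 64.2 CPM, with at most 6.67 CPM in any other. The r values of *Il17a* and *Il23a* likewise rest mainly on those sums.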

How the data were processed

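Single-cell RNA of 1 LIP and 1 control library was analysed from the gene by barcode tables of whole UMI counts that the authors deposited, with no normalization. The submitters' processing notes name Cell Ranger and mm10 without a version. The count tables themselves record Cell Ranger 3.1.0. Barcodes with 200 to 7500 genes, at most 60000 UMIs and at most 10% mitochondrial UMIs were kept, 77.2% in LIP and 75.5% in the control; 2 barcode sequences occurred in both libraries, 1 of them kept in both. Cells were integrated and clustered in Seurat 5.3.0 (R 4.3.3) on 2000 variable genes and 30 dimensions at resolution 0.1, with sub-clusters at 0.2 in clusters of at least 60 cells. The 8 genes and their family were left out of the clustering (26 genes in all). Clusters were named from marker genes fixed by list, and those with fewer than 3 detected markers stayed unnamed. Doublets were called with Scrublet in scanpy 1.11.5 and kept.

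UMIs were summed per class and library and divided by the UMIs of that sum to give CPM. Intervals were exact Poisson intervals for levels, Clopper-Pearson intervals for shares and exact conditional binomial intervals for ratios, all at 95% (Python 3.11.15, scipy 1.17.1). With 1 library per condition no p-value was computed. In fold bounds a level of 0 was taken as 3 counts, and the counting error of the other level was left out. Genes with at least 20 UMIs over both libraries were called at 2-fold after adding 10 CPM. Shares of cells were recomputed as the share expected after thinning each cell to 1000 UMIs. Beside the 8, each pathway list's genes with at least 50 UMIs over both libraries were named, at most the 4 with the most, plus *Il12b*, *Il12rb1*, *Il17rb*, *Il17rd*, *Il17re*, *Traf3ip2*, *Cxcl1*, *Cxcl5*, *Csf3*, *Il6*, *Lcn2*, *Ccl20* and *Tnfsf11*, T cell receptor genes in the cells with *Il17a*, and the 5 genes most like each member, of which up to 5 are printed. *Il17c*, *Il25*, *Il1r1* and genes outside this rule were added after their values had been seen. Some genes of the lists are not reported here. The 8 genes and the lists were chosen with earlier results of these data known. Coordinates came from GENCODE M21, promoters from RefSeq GRCm38.p6. The calculations were tested on simulated data. Alternatives covered clustering, cell filters, cell naming, cell weighting, thinning depth, the added CPM and the UMI minimum.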

Additional observations from a re-analysis of the deposited data

Results flagged for a closer look

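*Nfkbiz* differed in direction between classes. Its log2 ratio of LIP over control was 1.91 in neutrophil-like cells, 1.07 in epithelial-like cells, 1.01 in T-like cells, 0.62 in fibroblast-like cells and 0.35 in macrophage-like cells, but −0.71 in mural-like cells, each with an interval for counting error that did not include 0. The difference between the classes was not tested, since each condition was 1 library. Among mural-like cells the direction was the same in the sub-clusters led by *Tagln* and *Myh11* (−0.36) and by *Rgs5* and *Vtn* (−1.11), although the interval of the first included 0.

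*Zc3h12a* was also seen in the barcodes that the limits on genes, UMIs and mitochondrial share had left out. It was at 29.7 CPM over 276 left-out barcodes of the LIP library and at 15.004 CPM over 286 of the control.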

How the results depend on the processing

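With 1 library per condition, each from 5 pooled mice, counting error was the only error that could be given, and no replicate could be left out. No paired analysis was possible because each group was a single library. Among the main results 95 recomputed values moved by less than their interval, 20 moved further and 1 reversed; among the single-class values 335 and 12 did. The share of *Il17a* in T-like cells (96.6%) was 89.9% with 15 dimensions, 98.4% with at most 5% mitochondrial UMIs, 98.7% with each cell named by its own marker score, 94.8% without the highest cell and 98.6% without the barcode that held T cell and keratin genes. Its ratio (4.32) was 3.80 with at most 5% mitochondrial UMIs, 4.63 with each cell weighing the same, 5.99 without the highest cells and 3.29 in *Trdc*-rich cells, the last chosen after seeing the data. The share of *Il23a* in neutrophil-like and macrophage-like cells was 89.1% without integration and 88.2% by own marker score. Leukocytes stood above other cells in *Il17ra* by 4.33 with each cell weighing the same, and below them in *Il17rc* by a bound of −4.83 rather than −5.21 with at most 5% mitochondrial UMIs; for *Il17rc* the cell weights gave no value. *Nfkbiz* in neutrophil-like cells (1.91) was 2.36 by own marker score, 1.31 with each cell weighing the same, and 0.95 and 1.01 within the sub-clusters, a split added after seeing the data. In epithelial-like cells (1.07) it was 1.43 with 15 dimensions. *Zc3h12a* in neutrophil-like cells (0.84) was 0.086 with each cell weighing the same and reversed to −0.32 within the *Acod1*-led sub-cluster. With 1 CPM added in place of 10, 6 calls were higher and 1 lower, where 6.94% and 5.61% of all genes were called; with no UMI minimum 6 were higher and 0 lower, where 3.003% and 2.98% were. The cause of these moves was not tested. Depth limited *Il17f* and *Il23r* most, with at most 13 UMIs in a library.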

Other observations

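Within the *Trdc*-rich T-like cells, genes beside *Il17a* also differed between the libraries, from 10 LIP and 7 control cells. *Il1r1*, the receptor for IL-1, had 18 UMIs in 7 LIP cells and 1 in the control, a log2 ratio of 3.67 (1.01 to 9.05), while *Cd163l1* gave 0.16 and *Trdc* itself 0.39. *Zc3h12a* was lower in the LIP cells, at 57.7 against 175 CPM (−1.60, −3.13 to −0.22), from 7 and 15 UMIs. Of the 7 LIP UMIs 5 were in a single cell, and over all T-like cells the *Zc3h12a* ratio was −0.11 (−0.84 to 0.61). *Nfkbiz* was at 165 and 93.1 CPM in the *Trdc*-rich cells (0.82, −0.42 to 2.22). The share of all genes that differed between these LIP and control cells was not counted. These intervals cover counting error only.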
